A study of Homo sapiens with 12 samples.

Results

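The genes described here are ATF4 and 9 genes of its stress program: DDIT3, TRIB3, ASNS, PHGDH, PSAT1, SHMT2, CHAC1, SESN2 and DDIT4. They were taken by name from the 38478 genes of the deposited expression table. 8 of the 10 had a mean level of at least 0.5 RPKM, where RPKM is reads per kilobase of gene length, scaled to the total reads of the library, and entered the tests with 11241 genes in all. PHGDH and PSAT1 fell under that limit and are given by their reads.

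The libraries came from OPM-1, an established human multiple myeloma line, so a single line stands for the disease here. Cells received for 48 h either the vehicle DMSO, lenalidomide at 0.1 μM (LEN), the RUNX inhibitor AI-10-104 at 1 μM, or LEN and AI-10-104 together at these doses. Lenalidomide directs the ubiquitin ligase with cereblon to IKZF1 and IKZF3, and AI-10-104 keeps RUNX proteins from binding CBFβ. Each condition had 3 replicates, 12 polyA RNA libraries in all, which the study calls independent experiments. The series asks what the combination does to gene expression that neither drug does alone.

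The integrated stress response starts at kinases that phosphorylate the initiation factor eIF2, among them PERK for misfolded protein in the endoplasmic reticulum and GCN2 for uncharged tRNA. General translation then slows while translation of the ATF4 mRNA rises. The bZIP factor ATF4 binds CARE elements together with C/EBP partners and turns on genes for amino acid uptake, amino acid and serine synthesis, tRNA charging and, when stress lasts, cell death. Myeloma cells make large amounts of immunoglobulin, and this pathway is well known in them. mRNA levels were measured here, not ATF4 protein or eIF2 phosphorylation.

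A CARE match was looked for as TGATGNAA, where N is any base, on both strands of the 250 bases before each RefSeq gene start (GRCh38.p14). 9 of the 10 genes were in the promoter table, SHMT2 being the one without an entry. ASNS and CHAC1 held a match, 2 of 9 genes, whereas 3.19% of all 27305 promoters and 1.27% of the 8088 promoters of tested genes held one. Among the tRNA synthetases and XPOT that are usually listed as ATF4 targets, 2 of 11 promoters held a match, those of AARS1 and IARS1. None of 7 amino acid transporters held one, 1 of 10 other targets, 2 of 7 serine, proline and one-carbon genes, 1 of 5 partner factors, and 1 of 10 ATF6 and XBP1 targets, which were taken for comparison. Of the eIF2 phosphatase subunits 1 of 2 held one. The eIF2 kinases, eIF2 and eIF2B subunits, mitochondrial relay and other cytosolic synthetases held none. SLC7A11, PYCR1, GPT2 and PSPH had no entry in the promoter table and were not searched. Windows are printed for ASNS, CHAC1, AARS1 and IARS1, and the other matches are counted only. The matched letters are in capitals, and the other letters are the flanks, in the direction of the gene.
ASNS, chr7:97872458-97872487, minus strand: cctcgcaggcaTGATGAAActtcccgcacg
CHAC1, chr15:40953251-40953280, plus strand: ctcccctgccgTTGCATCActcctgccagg
AARS1, chr16:70289675-70289704, minus strand: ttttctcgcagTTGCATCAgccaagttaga
IARS1, chr9:92293698-92293721, minus strand: ttttcagcgcgTTGCATCAcctcc
The ASNS match read in the direction of the gene and began at position -68, where -1 is the last base before the start. Those of CHAC1, AARS1 and IARS1 read on the opposite strand and began at -209, -187 and -13. All 4 windows lie in exons of at least 1 GENCODE 44 transcript. A match describes letters and is no measure of binding. A gene without a match may still hold an element outside the 250 bases searched.

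The myeloma identity of the libraries was checked first. All 10 plasma cell and myeloma markers, among them SDC1, TNFRSF17 and FGFR3, had a mean of at least 0.5 RPKM, with a summed level of 1861 to 2191 RPKM per library. None of the 15 markers of T cells, B cells, monocytes, stroma and epithelium reached 0.5 RPKM, and their summed levels per list ended at 0.58 RPKM or below. Reads on genes ran from 16352548 to 31386210 per library. Over all tested genes the median log2 difference from DMSO was 0.02 or less in size in each of the 3 treatments, on values already scaled to library totals.

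ATF4 mRNA was abundant in all conditions, and its level was lowest in the combination. ATF4 (ENSG00000128272, chr22:39519695-39522683, GRCh38) had the highest level of the 10 genes, above 96.8% of all tested genes. Its 3 DMSO libraries held 169, 153 and 163 RPKM and its LEN libraries 144, 149 and 155 RPKM. The AI-10-104 libraries held 145, 132 and 161 RPKM and the combination libraries 132, 131 and 141 RPKM. All 3 combination libraries lay below all 3 DMSO and all 3 LEN libraries, while each single drug overlapped DMSO. The mean was 161 ± 7.8 RPKM (SD, n = 3) in DMSO and 135 ± 5.32 RPKM in the combination, a log2 difference of -0.26 (SE 0.06, 95% interval -0.40 to -0.12). This difference passed the adjusted p of 0.05 (limma, adjusted p = 0.027) but not the size of 0.32 on the log2 scale, a fold of 1.25, that a call also needed. The differences of -0.11 in LEN (adjusted p = 0.60) and -0.15 in AI-10-104 (adjusted p = 0.21) did not pass. In bulk RNA, a lower level in every cell cannot be told apart from a larger share of cells with a low level.

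The plot of levels by library sets the 8 measured genes side by side.

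**Figure D1:**
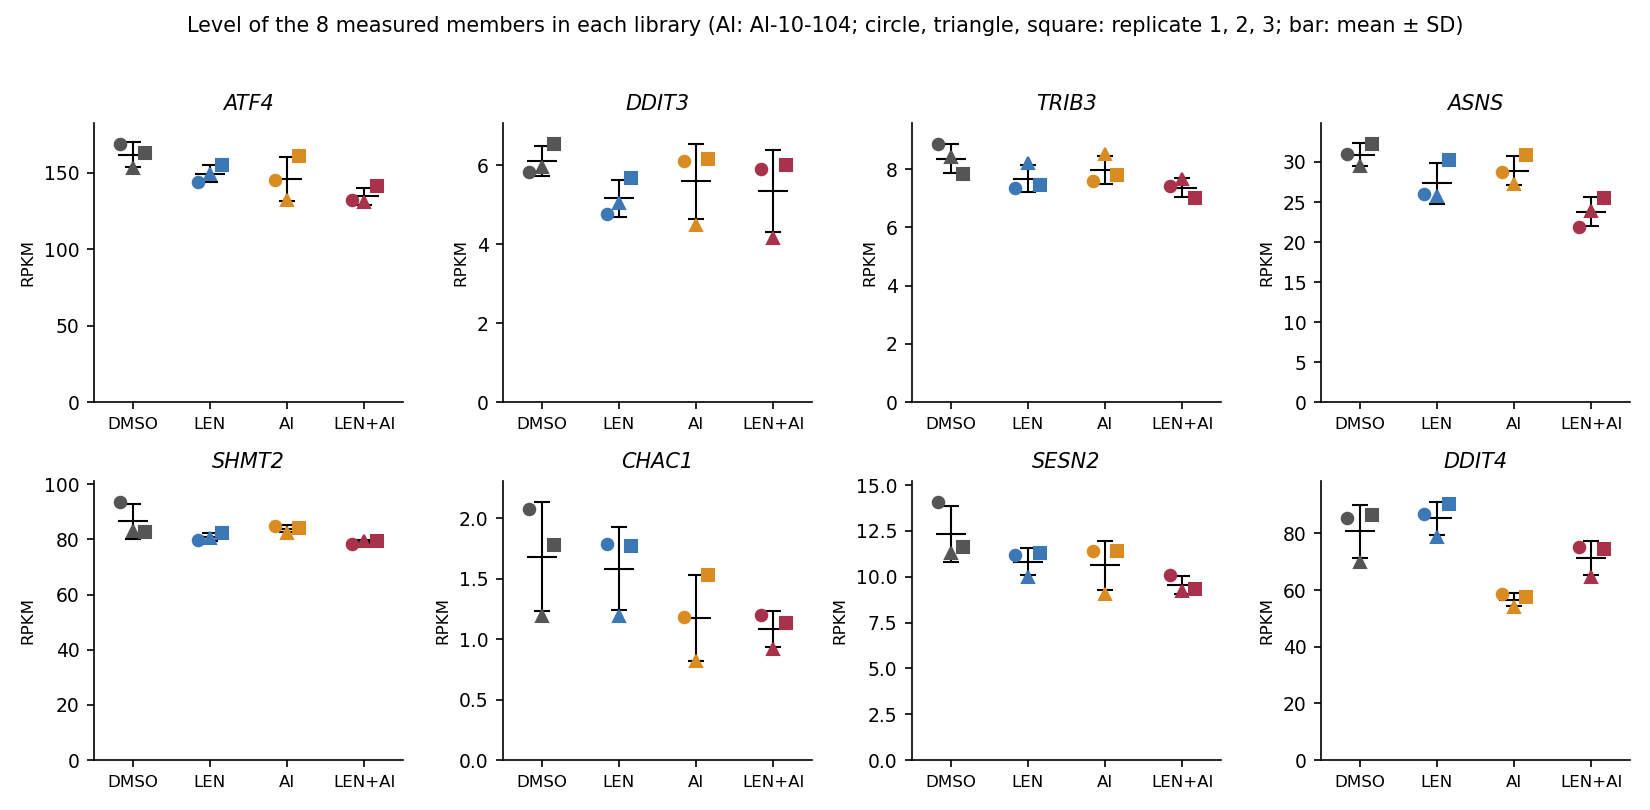
Level in RPKM (vertical axis, from 0) of the 8 measured genes in the 3 libraries of each condition (horizontal axis, AI for AI-10-104), with the mean and SD as bars. ATF4, ASNS, TRIB3, SHMT2 and SESN2 have all 3 combination libraries below all 3 DMSO libraries, and DDIT4 is lowest in AI-10-104 alone.

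DDIT3 and TRIB3, 2 ATF4 targets that act on the response itself, were measured at moderate levels and passed no test. DDIT3 (ENSG00000175197, chr12:57516588-57521737) encodes CHOP, a bZIP factor that promotes death under lasting stress. Its DMSO libraries held 5.82, 5.96 and 6.54 RPKM and its LEN libraries 4.76, 5.04 and 5.66 RPKM, without overlap. The AI-10-104 libraries held 6.11, 4.49 and 6.16 RPKM and the combination libraries 5.90, 4.15 and 5.99 RPKM, so that replicate 2 was the low one in both. The difference from DMSO was -0.24 (95% interval -0.56 to 0.08, adjusted p = 0.64) in LEN and -0.20 (95% interval -0.52 to 0.11, adjusted p = 0.43) in the combination. 355 of the 1307 exon bases of DDIT3 also lie in exons of MARS1 on the opposite strand. The study made its libraries with a directional kit, but whether reads were counted by strand is not given in the sources used here. MARS1, a synthetase of the ATF4-listed group, was at 89.6 RPKM in DMSO against 6.10 RPKM for DDIT3, and its part in the DDIT3 values was not tested.

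TRIB3 (ENSG00000101255, chr20:362835-397559) encodes a pseudokinase that dampens ATF4 activity. It held 8.85, 8.41 and 7.84 RPKM in DMSO and 7.41, 7.66 and 7.02 RPKM in the combination, which did not overlap. LEN gave 7.37, 8.20 and 7.45 RPKM and AI-10-104 7.60, 8.52 and 7.80 RPKM, both overlapping DMSO. The combination difference was -0.18 (SE 0.06, adjusted p = 0.10), and the differences of the single drugs were -0.12 and -0.07.

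ASNS, the asparagine synthetase, was the member with the clearest fall under the combination. ASNS (ENSG00000070669, chr7:97851677-97872542), whose promoter window with the CARE match is printed above, held 31.0, 29.5 and 32.3 RPKM in DMSO and 21.9, 23.9 and 25.5 RPKM in the combination. LEN gave 26.0, 25.7 and 30.3 RPKM and AI-10-104 gave 28.7, 27.2 and 30.9 RPKM. The combination libraries lay below every other library, including those of both single drugs. The mean fell by 23.2% from DMSO, a log2 difference of -0.38 (SE 0.07, adjusted p = 0.0093), and the call was kept under all 23 alternative analyses, with differences between -0.43 and -0.32. Against AI-10-104 alone the difference was -0.28 (SE 0.07, adjusted p = 0.027), under the size needed for a call, and against LEN alone it was -0.20 (adjusted p = 0.15). The single drugs gave -0.18 (LEN, adjusted p = 0.38) and -0.10 (AI-10-104, adjusted p = 0.47).

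The serine branch was uneven in these cells: the 2 genes at its head were at or near 0 reads, while its later genes were well expressed. PHGDH (ENSG00000092621, chr1:119648411-119744218), which makes the first step from 3-phosphoglycerate, was listed at 0 in all 12 libraries. In these libraries 3 reads would be worth 0.0384 to 0.0738 RPKM for PHGDH. The valyl-tRNA synthetase VARS, which every cell uses, was also listed at 0 in all 12 libraries, so a listed 0 in this table is given as such and not as a lack of the transcript. VARS has further copies on the alternate loci of GRCh38, and the table gives it 26676 bases, 4.54 times its GENCODE 44 exon bases, so its 0 may not be of the same kind as that of PHGDH; this was not tested. The length used for PHGDH in the table was 2487 bases, against 9187 exon bases in GENCODE 44.

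PSAT1 (ENSG00000135069, chr9:78297125-78330093), the aminotransferase of the next step, had between 0 and 5 reads per library and 35 reads in all. Its DMSO libraries had 1, 1 and 3 reads and its LEN libraries 5, 0 and 3 reads. The AI-10-104 libraries had 5, 4 and 3 reads and the combination libraries 3, 4 and 3 reads. 8 of the 12 libraries were at or under 3 reads, and no difference between conditions was tested for this gene. In RPKM the combination libraries (0.0685, 0.108 and 0.0651) lay above the DMSO libraries (0.0141, 0.0147 and 0.0624), each on no more than 4 reads. PSPH, the phosphatase that ends the route, was in contrast at 12.6 ± 0.562 RPKM in DMSO.

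SHMT2 (ENSG00000182199, chr12:57229573-57234935), the mitochondrial hydroxymethyltransferase that passes serine carbon to folate, was among the highest of the 10 genes. Its DMSO libraries held 93.7, 83.2 and 82.7 RPKM and its combination libraries 78.5, 79.4 and 79.6 RPKM, without overlap. LEN held 79.7, 80.7 and 82.5 RPKM, also below DMSO, and AI-10-104 held 84.8, 82.5 and 84.3 RPKM, within the DMSO range or just under it. The difference was small, -0.13 in the combination (SE 0.04, adjusted p = 0.098) and -0.09 in LEN (adjusted p = 0.47). Without replicate 1 of DMSO, the highest of the 12 libraries for this gene, the combination difference was -0.07.

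**Figure D2:**
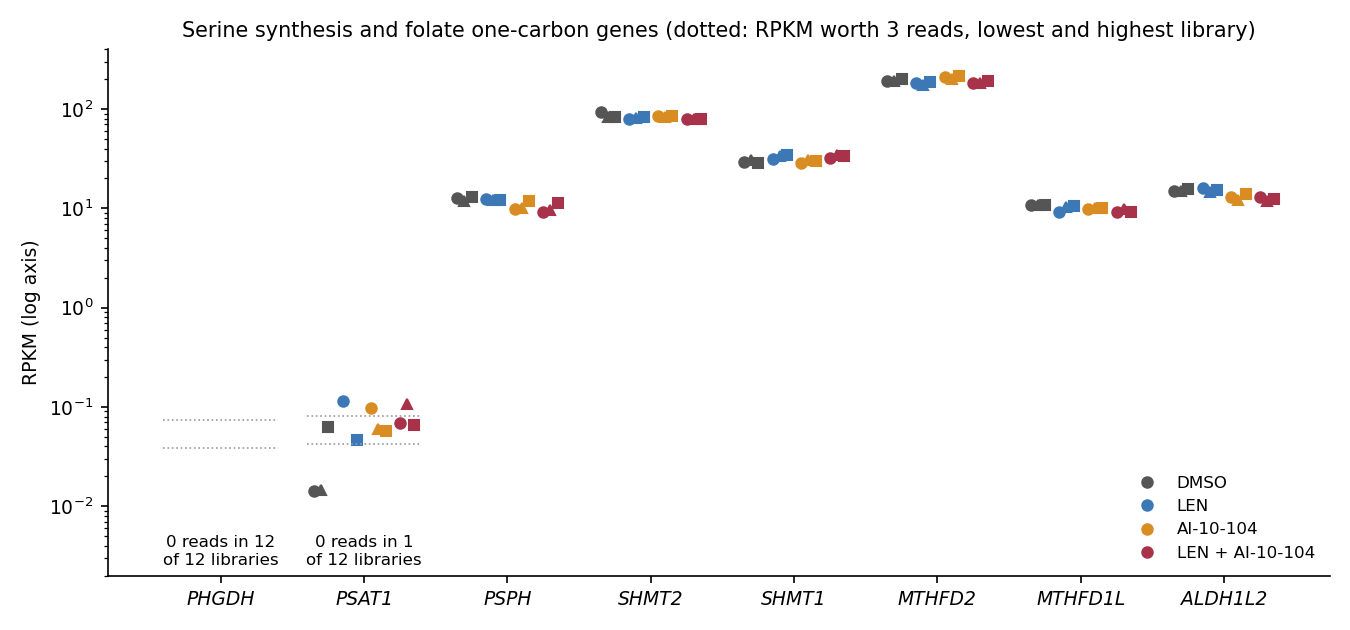
Levels in RPKM on a log axis of the serine synthesis genes PHGDH, PSAT1 and PSPH and of the folate one-carbon genes SHMT2, SHMT1, MTHFD2, MTHFD1L and ALDH1L2, with 1 point per library and color for the condition. PHGDH has 0 reads in 12 of 12 libraries and PSAT1 stays around the level of 3 reads (dotted lines, lowest and highest library), while the other 6 genes lie near or above 10 RPKM.

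CHAC1 (ENSG00000128965, chr15:40952962-40956512) encodes an enzyme that breaks down glutathione and is one of the most responsive ATF4 and CHOP targets. It held 2.08, 1.19 and 1.78 RPKM in DMSO, 1.79, 1.19 and 1.77 RPKM in LEN, 1.18, 0.819 and 1.53 RPKM in AI-10-104 and 1.20, 0.915 and 1.13 RPKM in the combination. Both conditions with AI-10-104 had lower means than both without it, but their ranges overlapped, and replicate 2 was the lowest library in each condition. The differences from DMSO were -0.49 (SE 0.24, adjusted p = 0.26) in AI-10-104 and -0.57 (SE 0.24, 95% interval -1.09 to -0.04, adjusted p = 0.18) in the combination, the largest in size of the 8 genes in the combination and the least precise. LEN alone gave -0.07 (adjusted p = 0.97). These values come from a fit that does not pair libraries by replicate number. In 1 of 23 alternatives, a fit with the replicate number as a block, CHAC1 was called lower in AI-10-104 and in the combination. Whether the numbers mark pairs was not tested. CHAC1 rested on 91 to 398 reads per library, and the table's length for it, 6084 bases, was 2.97 times its exon bases in GENCODE 44, which lowers its RPKM in all libraries alike.

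SESN2 and DDIT4 are both brakes on mTORC1, and SESN2 was called lower in the combination and DDIT4 in AI-10-104 alone. SESN2 (ENSG00000130766, chr1:28259518-28282491) encodes Sestrin2, a leucine sensor. It held 14.1, 11.3 and 11.6 RPKM in DMSO and 10.1, 9.20 and 9.33 RPKM in the combination, so the combination lay below DMSO throughout. LEN gave 11.2, 10.0 and 11.3 RPKM and AI-10-104 gave 11.4, 9.07 and 11.4 RPKM, and both overlapped DMSO and the combination. The combination difference was -0.36 (SE 0.10, adjusted p = 0.046), and the mean fell by 22.6%. This call was close to its limit: it was lost under 12 of 23 alternatives, among them leaving out any of 10 of the 12 libraries, where the adjusted p ranged up to 0.13, and without replicate 1 of DMSO, the highest library, the difference was -0.26.

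DDIT4 (ENSG00000168209, chr10:72273919-72276036) encodes REDD1, which is induced by ATF4 and also by glucocorticoid and hypoxia signals. AI-10-104 alone lowered it, and the combination mean lay between those of AI-10-104 and DMSO. Its libraries held 85.5, 70.0 and 86.6 RPKM in DMSO, 86.8, 78.8 and 90.3 RPKM in LEN, 58.5, 53.9 and 57.5 RPKM in AI-10-104 and 75.1, 64.5 and 74.5 RPKM in the combination. All 3 AI-10-104 libraries were below the other 9 libraries. The difference between AI-10-104 and DMSO was -0.50 (SE 0.09, adjusted p = 0.0073), the mean fell by 29.8%, and this call was kept under all 23 alternatives. In the combination the difference from DMSO was -0.17 (SE 0.09, adjusted p = 0.25).

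With AI-10-104 present, adding LEN raised DDIT4 by 0.33 on the log2 scale (SE 0.09, adjusted p = 0.026), from 56.6 ± 2.43 to 71.4 ± 5.94 RPKM. All 3 combination libraries lay above the AI-10-104 libraries and below the LEN libraries. The rise was just past the size threshold and was lost under 7 of 23 alternatives, where the adjusted p reached 0.093 at most over all 23. LEN alone gave 0.08 against DMSO (adjusted p = 0.84). The test of whether the LEN effect differed with AI-10-104 gave an interaction of 0.25 (95% interval -0.02 to 0.51, adjusted p = 0.37), so a difference of the LEN effect was not shown.

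**Figure D3:**
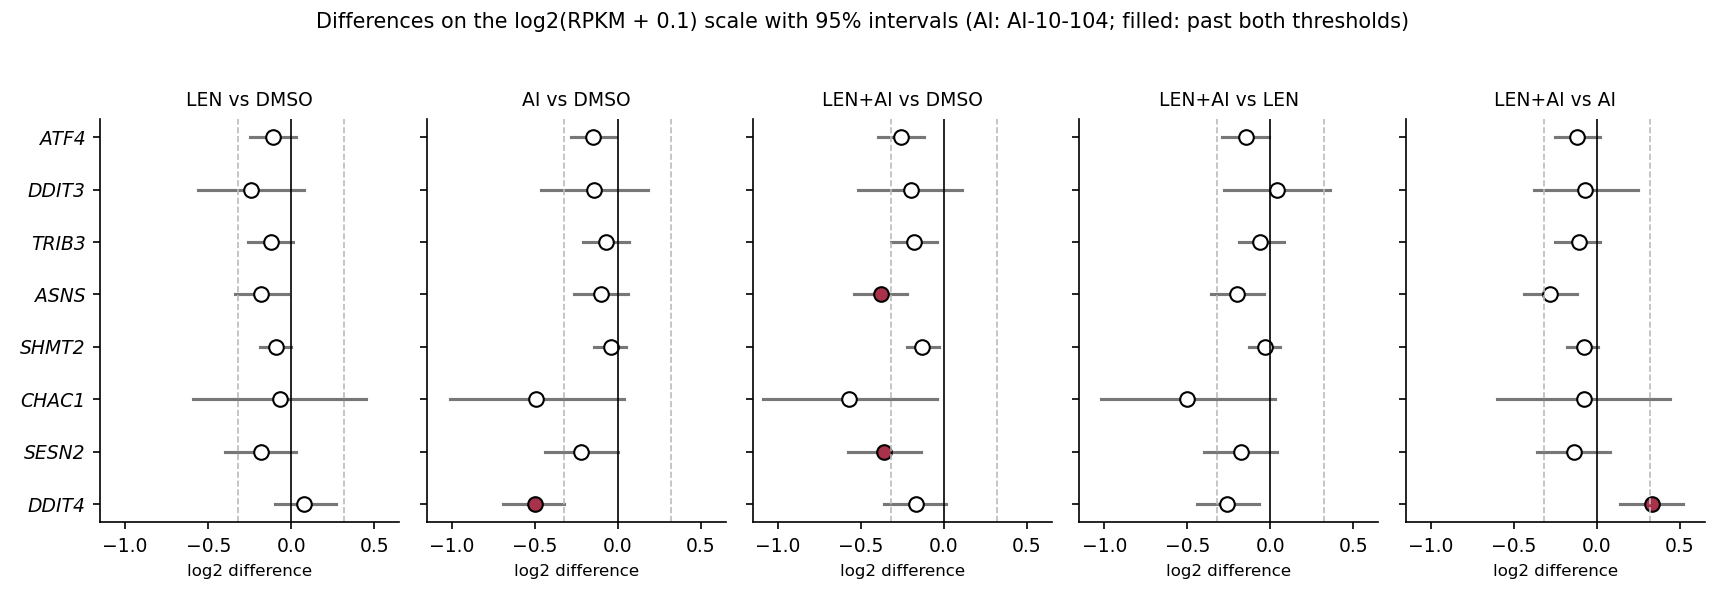
Difference on the log2(RPKM + 0.1) scale (horizontal axis) with its 95% interval for the 8 measured genes in 5 comparisons, AI standing for AI-10-104; filled points pass the adjusted p of 0.05 and the size of 0.32 (dashed lines). Filled are DDIT4 in AI-10-104 against DMSO, ASNS and SESN2 in the combination against DMSO, and DDIT4 in the combination against AI-10-104.

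Counted over the 8 genes, LEN alone called none, and the share of all tested genes called was 0.0623% lower and 0.587% higher. The LEN libraries lay wholly below DMSO for 2 of 8 genes, DDIT3 and SHMT2, and for 7.03% of all genes. AI-10-104 called 1 of 8 lower, DDIT4, against 1.09% of all genes lower and 0.685% higher. Without replicate 2 of AI-10-104 the counts over all genes moved from 122 lower and 77 higher to 299 and 144, and DDIT4 remained the 1 member called. DDIT4 was also the only one of the 8 whose 3 AI-10-104 libraries were below all DMSO libraries, which 10.2% of all genes did. The combination called 2 of 8 lower, ASNS and SESN2, and none higher, against 0.641% of all genes lower and 2.3% higher. In 5 of 8 genes the combination lay wholly below DMSO, as 11.1% of all genes did. The 3 comparisons share the DMSO libraries, so a high DMSO library lowers all 3 at once. Over the 8 genes the median difference was -0.23 in the combination, -0.14 in AI-10-104 alone and -0.12 in LEN alone. All 8 were below 0 in the combination and in AI-10-104 alone, beside 42.8% and 47% of all tested genes. In LEN alone 7 of the 8 were below 0, beside 51%.

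Adding AI-10-104 to LEN called none of the 8, against 0.872% of all genes higher and 0.81% lower. ATF4, ASNS, SHMT2 and DDIT4 were wholly below LEN, 4 of 8 genes, beside 10.5% of all genes. Adding LEN to AI-10-104 called DDIT4 higher and none lower, against 3.16% of all genes higher and 0.471% lower. The 355 genes higher became 661 without replicate 2 of AI-10-104, 162 and 186 without its replicates 1 and 3, and 189 without replicate 1 of the combination. In the interaction none of the 8 was called, nor was any of the 11241 genes (0% called by limma), while 1621 genes had an unadjusted p under 0.05 and limma's voom on reads computed back from RPKM called 3 genes, none of the 8. The interaction over all genes turned on replicate 2 of AI-10-104, without which 415 genes were called higher and 125 lower, again none of the 8.

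The 8 profiles were compared over the 12 libraries as a description. ATF4 had the closest profile to the mean of the other 7 (Pearson r = 0.94), followed by SESN2 (0.92), CHAC1 (0.78), ASNS (0.75) and SHMT2 (0.73). DDIT3 (0.49), DDIT4 (0.32) and TRIB3 (0.28) followed it least. All points share their libraries and 4 conditions, so these values hold the treatment step and the library scaling together. Of the other tested genes, the 5 closest to the mean profile were SARS (0.93), TSEN15 (0.91), RGS16 (0.90), FKBP1AP1 (0.90) and AARS (0.89). SARS and AARS are the seryl- and alanyl-tRNA synthetases of the ATF4-listed group, TSEN15 is a subunit of the tRNA splicing endonuclease, and RGS16 is a brake on G protein signaling. FKBP1AP1 is a pseudogene that may share reads with its parent gene. In the combination RGS16 was called lower, at -0.37 (adjusted p = 0.024), and TSEN15 stood at -0.27 (adjusted p = 0.0023).

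The sensors of the response changed little in mRNA. All 4 eIF2 kinases were expressed and none was called in any comparison. EIF2AK1 was at 29.8 RPKM on average and stood at 0.00 in the combination, whereas EIF2AK3, which is PERK, stood at -0.18 (adjusted p = 0.0090) and EIF2AK2, the interferon-induced kinase PKR, at 0.25 (adjusted p = 0.019), both under the size threshold. EIF2AK2 also stood at 0.25 in LEN alone (adjusted p = 0.06), and at 0.02 in AI-10-104 alone (adjusted p = 0.90). None of the 8 eIF2 and eIF2B subunits was called, EIF2S3 being at -0.13 and EIF2B1 at -0.03. Of the phosphatase subunits that end the response, PPP1R15A (GADD34) stood at -0.09 and PPP1R15B at -0.04, neither called. OMA1, the mitochondrial protease that starts the DELE1 relay, was the single gene of these lists to be called: adding LEN to AI-10-104 lowered it from 25.5 ± 2.59 to 19.4 ± 0.151 RPKM (log2 difference -0.39, adjusted p = 0.0063). The DMSO mean of OMA1 was 21.1 RPKM. Against DMSO, OMA1 stood at 0.27 in AI-10-104 alone (adjusted p = 0.049) and at -0.12 in the combination (adjusted p = 0.31), neither called.

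Among the partners of ATF4, none of the 4 measured was called. CEBPG stood at -0.02 and ATF5 at 0.18 in the combination, and CEBPB at -0.23 (adjusted p = 0.025) was below the size threshold. JDP2 and NUPR1 were under 0.5 RPKM.

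The 5 lists of further ATF4 targets held 51 genes, 42 of them tested. In the combination 5 of 42 were called lower and none higher, beside 0.641% and 2.3% of all tested genes. 35 of the 42 were below 0, beside 42.8% of all tested genes, and the median was -0.16, beside 0.02. AI-10-104 called 3 lower and none higher, beside 1.09% and 0.685%, with a median of -0.04. LEN called none, beside 0.0623% lower and 0.587% higher, with a median of -0.06. The lists differed from each other, as the plot of pathway lists shows.

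**Figure D4:**
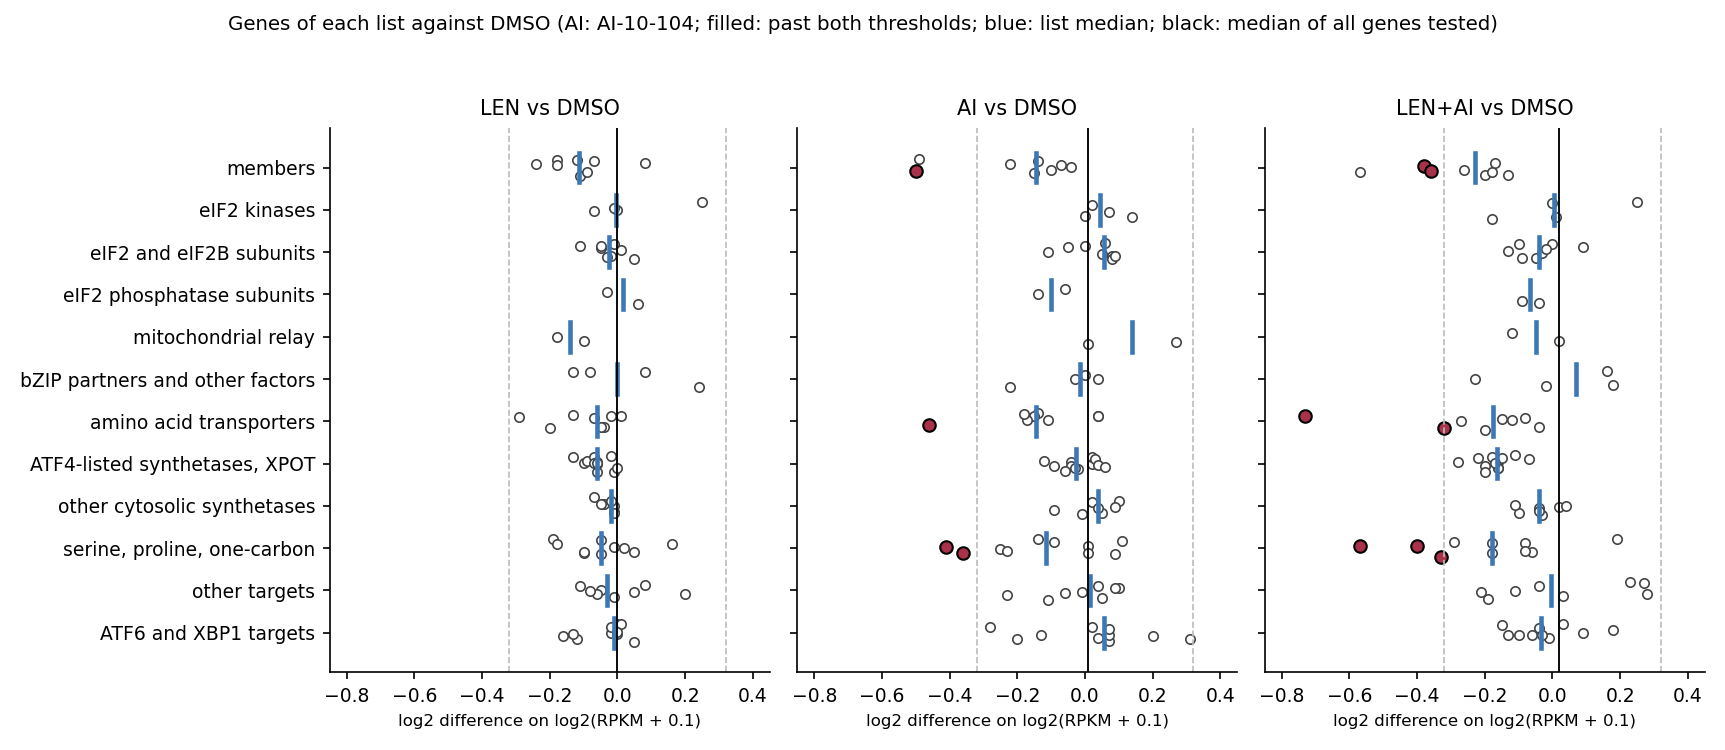
Difference from DMSO on the log2(RPKM + 0.1) scale (horizontal axis) of every tested gene of 12 lists in LEN, AI-10-104 (AI) and the combination, with the list median in blue, the median of all tested genes in black and called genes filled. In the combination all 8 amino acid transporters and all 12 tested genes of the synthetase and XPOT list are below 0. Of the 10 ATF6 and XBP1 targets, 7 are below 0 and 3 above.

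The amino acid transporters held the largest single difference. All 8 were measured, and in the combination all 8 lay wholly below DMSO, beside 11.1% of all tested genes, with a median of -0.17. The differences ran from -0.73 to -0.04, the smallest being that of SLC38A2 (limma, adjusted p = 0.54). SLC1A4 at -0.08, SLC1A5 at -0.12 and SLC3A2 at -0.15 did not pass the adjusted p either, while the other genes of the list did. 2 of the 8 were called lower, beside 0.641%. SLC7A11, the cystine transporter, held 7.07, 7.34 and 7.32 RPKM in DMSO and 6.33, 5.61 and 5.79 RPKM in LEN. It held 5.48, 5.39 and 4.91 RPKM in AI-10-104 and 4.41, 4.45 and 4.14 RPKM in the combination. The 4 conditions did not overlap at any step. The mean fell by 40.1% in the combination (log2 difference -0.73, SE 0.06, adjusted p = 1.7e-05). It fell by 27.4% in AI-10-104 (-0.46, adjusted p = 0.0010), both called under all 23 alternatives, and AI-10-104 added to LEN lowered it by 0.44 (adjusted p = 0.0015). LEN alone gave -0.29 (adjusted p = 0.037), under the size threshold, and the interaction was 0.02 (adjusted p = 0.93). SLC6A9, a glycine transporter, was called in the combination at -0.32 (adjusted p = 0.0064), from 4.44 ± 0.188 to 3.53 ± 0.223 RPKM, and not in 3 of 23 alternatives.

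The tRNA synthetases were highly expressed and differed from DMSO by small amounts. In the combination none of the 12 tested ATF4-listed genes was called, since no difference reached 0.32, but all 12 lay wholly below DMSO, beside 11.1% of all tested genes, between -0.28 for GARS1 and -0.07 for LARS1, with a median of -0.16. In AI-10-104 alone 5 of the 12 were above 0. AARS1, whose promoter window is printed above, went from 241 ± 10.4 to 210 ± 6.85 RPKM (-0.20, adjusted p = 0.016), and EPRS1 from 208 ± 3.19 to 178 ± 1.36 RPKM (-0.22, adjusted p = 0.0048). CARS1, the cysteinyl-tRNA synthetase, was listed at 0.46 RPKM on average, while LARS1, the lowest of the 12 tested, was at 42.9 RPKM. Whether the low value of CARS1 is an effect of the counting was not tested. In the comparison list of other cytosolic synthetases 3 of the 7 tested lay wholly below DMSO in the combination and 2 were above 0, with a median of -0.04, KARS1 at -0.10 and FARSA at 0.02. The difference between these lists was not tested.

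Of the serine, proline and one-carbon genes, 3 of 10 were called in the combination, all lower, beside 0.641% of all tested genes. PYCR1, which makes the last step of proline synthesis, held 122, 113 and 110 RPKM in DMSO, 98.9, 102 and 101 RPKM in LEN, 83.6, 88.5 and 86.9 RPKM in AI-10-104 and 80.0, 76.7 and 75.0 RPKM in the combination. Each condition lay wholly below the one before it. The difference was -0.57 in the combination (SE 0.04, adjusted p = 1.3e-05), -0.41 in AI-10-104 (adjusted p = 0.00027) and -0.19 in LEN (adjusted p = 0.074), and the combination was also called lower than LEN (-0.38, adjusted p = 0.00046).

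GPT2, the mitochondrial alanine aminotransferase, held 21, 19.2 and 20.7 RPKM in DMSO and 15.5, 15.2 and 15.4 RPKM in the combination (-0.40, SE 0.05, adjusted p = 0.00031), below every library of the single drugs, which had means of 17.9 RPKM in LEN and 18.5 RPKM in AI-10-104. PSPH was called at -0.33 in the combination (adjusted p = 0.025) and was lost under 6 of 23 alternatives. CTH, which makes cysteine from cystathionine, was called in AI-10-104 alone, at -0.36 (adjusted p = 0.012), falling from 4.93 ± 0.366 to 3.82 ± 0.162 RPKM, was lost under 4 of 23 alternatives, and stood at -0.18 (adjusted p = 0.13) in the combination. Its combination libraries lay between those of AI-10-104 and DMSO. SHMT1, the cytosolic counterpart of SHMT2, stood on the other side at 0.19 (adjusted p = 0.032), under the size threshold, with all 3 combination libraries above DMSO.

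**Figure D5:**
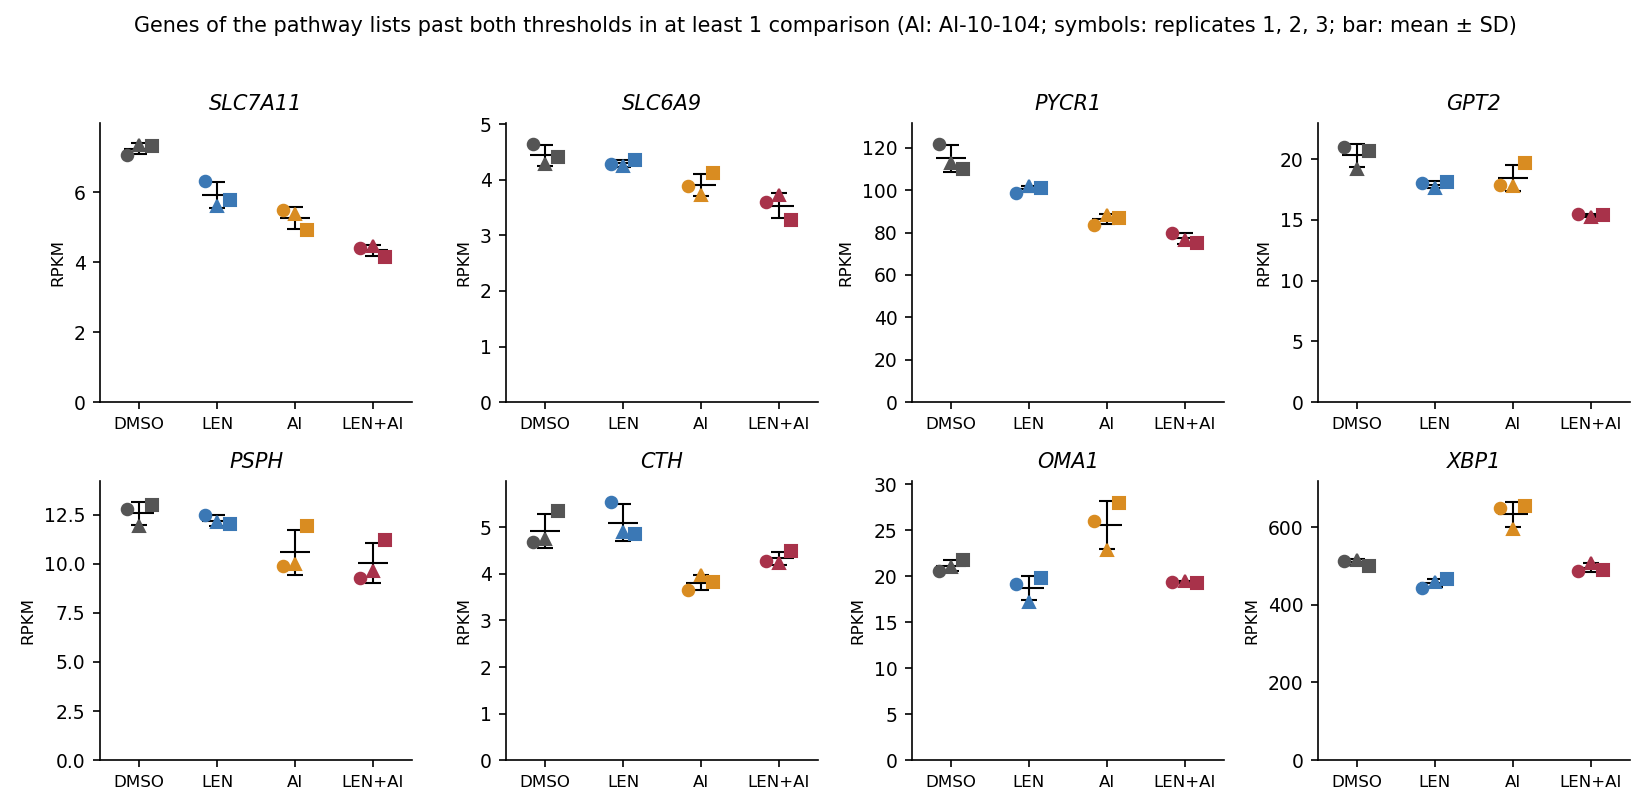
Level in RPKM (vertical axis, from 0) of the 8 genes of the pathway lists that were called in at least 1 comparison, in the 3 libraries of each condition (AI for AI-10-104), with the mean and SD as bars. SLC7A11 and PYCR1 descend over DMSO, LEN, AI-10-104 and the combination, CTH is lowest in AI-10-104, and OMA1 and XBP1 are highest there.

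The remaining target list, 13 genes of mixed function, among them genes of cell death, autophagy and secreted factors, showed no common direction. None of the 8 tested genes was called, and 4 were above and 4 below 0 in the combination. EIF4EBP1 stood at -0.11, MAP1LC3B at -0.04, VEGFA at -0.19 and SQSTM1 at 0.28 (adjusted p = 0.013). GDF15, FGF21, VLDLR, STC2 and BBC3 were under 0.5 RPKM.

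The ATF6 and XBP1 targets, the other arms of the endoplasmic reticulum response, were taken for comparison. None of the 10 was called against DMSO in any treatment, and their median was -0.04 in the combination and 0.05 in AI-10-104. XBP1 itself was at 509 ± 8.54 RPKM in DMSO and 632 ± 33.3 RPKM in AI-10-104 (0.31, adjusted p = 0.0010), just under the size threshold, and the combination was called lower than AI-10-104 at 495 ± 11.6 RPKM (-0.35, adjusted p = 0.00061). HERPUD1 stood at 0.18 (adjusted p = 0.0080) and HSP90B1 at -0.15 (adjusted p = 0.053) in the combination. In AI-10-104 alone 7 of these 10 genes were above 0 and 3 below, between -0.28 and 0.31. PDIA4 went from 132 ± 2.66 RPKM in DMSO to 115 ± 8.27 RPKM there, with all 3 libraries below DMSO. Of the 42 tested genes of the 5 ATF4 target lists, 26 were below 0 in AI-10-104 and 16 above. XBP1 is thus 1 gene of a list without a common direction there.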

How the data were processed

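RNA of 12 OPM-1 libraries was measured. Per the labels and the study's methods, the authors aligned reads to GRCh38 with STAR and deposited a gene table whose header gives RPKM. FastQC, Cuffnorm and DESeq2 are also named in the submitters' processing notes; versions, the annotation and the strand setting are not given in the sources used here. Every value came out as a whole number of reads (tolerance 0.01), 16352548 to 31386210 per library. limma 3.58.1 (R 4.3.3) was fitted to log2(RPKM + 0.1) of the 11241 genes averaging 0.5 RPKM or more, with 4 condition means, a variance trend and Benjamini-Hochberg adjustment over all genes in each of 6 comparisons. Fold changes on this scale understate changes of low genes. Called means adjusted p of at most 0.05 and 0.32 on the log2 scale (interaction: p alone). The genes and lists were chosen with earlier results of these data known. Named were the 10 genes, list genes called in any comparison, otherwise the 2 highest and the largest differences per list, and the 5 closest profiles. SHMT1, CEBPB, VEGFA, HERPUD1, HSP90B1, PDIA4, SLC38A2, SLC1A4, SLC3A2, LARS1, MARS1, CARS1 and VARS were named after their values were seen. 28 names in the table were date numbers and could not be matched. The script was tested on simulated data.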

Additional observations from a re-analysis of the deposited data

How the results depend on the processing

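Of 1088 values of single genes under 23 alternatives, 1062 kept their side of the thresholds, 19 lost a call, 7 gained one and none that was called changed sign. 12 of the 44 uncalled differences turned sign under at least 1 alternative. The count of members lower in the combination against DMSO (2) was 1 with no filter on low values and 1 with no variance trend, and 1 to 2 when 1 library was left out: SESN2 was lost in each of these except without replicate 2 of LEN or of AI-10-104. The 1 member higher in the combination against AI-10-104, DDIT4, became 0 with no filter and 0 with median-ratio rescaling, and 0 to 1 over the left-out libraries, 0 without replicate 1, 2 or 3 of AI-10-104 or 1 or 3 of the combination. The count lower in that comparison (0) was 1 (ASNS) with no fold threshold and 0 to 1 over the left-out libraries, 1 without replicate 2 of AI-10-104 or 3 of the combination. The cause was not tested.

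A replicate block gave 2 members lower in AI-10-104 (CHAC1 and DDIT4), 1 lower in the combination against LEN (CHAC1) and 3 lower in the combination against DMSO (with CHAC1). The main fit did not pair the libraries by number. Same-numbered libraries deviated together with a mean correlation of 0.0522 over 18 pairs (-0.0272 to 0.155, 2 pairs over 0.1). Differently numbered libraries had a mean of -0.0261 over 36 pairs (-0.133 to 0.059, 0 pairs over 0.1). The deviations were taken from the mean of each condition and sum to 0 within it. The mean of the differently numbered pairs therefore follows nearly from that of the same-numbered pairs and is no separate comparison value. Of the 12 libraries, 10 correlated best with their own number. Whether the numbers mark pairs was not tested. Another scaling moved the split of all calls in the combination against LEN from 98 higher and 91 lower to 64 and 120 (quantile) or 71 and 109 (median ratio). Counts over all genes also moved by over 1.5 times when 1 library was left out. In AI-10-104 against DMSO they ran from 46 to 144 higher and 71 to 299 lower, past that size without replicate 1, 2 or 3 of AI-10-104 or 1 or 2 of DMSO. In the combination against AI-10-104 they ran from 162 to 661 higher and 21 to 103 lower (without replicate 1, 2 or 3 of AI-10-104 or 1 of the combination). In the combination against LEN, 46 to 121 were higher (without replicate 1 or 3 of LEN or 1 or 2 of the combination). In LEN against DMSO, 33 to 64 were higher (without replicate 1 or 3 of LEN) and 2 to 6 lower. With 3 libraries a condition, the interval of CHAC1 reached from -1.09 to -0.04.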

Other observations

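Within each condition the libraries numbered 2 were the low ones for part of the group. CHAC1, SESN2 and DDIT4 were lowest in replicate 2 in all 4 conditions, 3 of the 8 measured genes, while 265 of 11241 tested genes (2.36%) showed this. The mean of CHAC1 over the 4 conditions was 1.57 RPKM in the libraries numbered 1, 1.03 RPKM in those numbered 2 and 1.56 RPKM in those numbered 3. DDIT4 stood at 76.5, 66.8 and 77.2 RPKM in the same order and SESN2 at 11.7, 9.90 and 10.9 RPKM. TRIB3 was not lowest in replicate 2 of any condition, at 7.81, 8.20 and 7.52 RPKM. Every condition held 1 library of each number.

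CBS, which makes cystathionine ahead of CTH, was listed at 0 in all 12 libraries. So was CBSL, its near-identical copy in GRCh38, and whether reads shared by the copies were left out of the counts was not tested.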
